A study of Mus musculus with 8 samples.

Results

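The genes followed here act in mitotic chromosome condensation, in whole hearts of mice at postnatal day 4: 8 condensin subunit genes, the topoisomerase gene Top2a and the proliferation marker Mki67. They were taken by symbol from the deposited table, which held all 10 among its 54532 genes. All 10 also passed the filter on low values, a mean of at least 1 FPKM over the 8 libraries, together with 13029 genes in all. FPKM are fragments per kilobase of gene length, scaled to the size of the library.

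The tested hearts, called cHET, were Mrps5 fl/+;Myh6-Cre (4 libraries), and their control littermates were Mrps5 fl/+ without Cre (4 libraries). Both genotypes thus carried a floxed allele of Mrps5, a gene of the small mitochondrial ribosomal subunit. Cre was driven by the promoter of Myh6, a cardiomyocyte gene, and per the labels it acted late in embryonic life. By this design non-myocytes should keep both alleles, which RNA of whole hearts cannot show. No group carried Cre without a floxed allele, so effects of Cre and of the lost allele cannot be told apart. The comparison asks how transcripts differ when cardiomyocytes hold a single Mrps5 allele.

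Condensins are ring-shaped complexes that fold chromatin into loops and so compact chromosomes for division. Condensin I and II share the ATPases Smc2 and Smc4. Each adds its own kleisin (Ncaph or Ncaph2), which closes the ring, and its own pair of HEAT-repeat subunits (Ncapd2 and Ncapg, or Ncapd3 and Ncapg2). Condensin II is nuclear throughout the cell cycle and starts condensation in prophase, while condensin I reaches the chromosomes once the nuclear envelope breaks down. Top2a passes DNA strands through each other and disentangles sister chromatids, and Ki-67, the product of Mki67, coats mitotic chromosomes and keeps them apart. Cardiomyocytes of newborn mice still divide or become binucleate before most of them leave the cell cycle.

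In these hearts the cHET means of 8 of the 10 genes were 1.32-fold (Ncapd2) to 1.73-fold (Mki67) those of control. No gene of the 10 passed the test across all genes. The other pair, Ncapd3 (1.03-fold) and Ncaph2 (0.98-fold), are subunits of condensin II, and their means differed by less than the spread between libraries. The 3 subunits particular to condensin I stood on the side of Top2a, Mki67 and the shared core, whereas of condensin II only Ncapg2 did.

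Promoter sequences are shown for 6 of the genes, because promoters of mitotic genes often carry 2 kinds of short element. One is the CCAAT box, bound by NF-Y. The other is the cell cycle genes homology region (CHR), bound by the MuvB complex. Sequences came from RefSeq (GRCm38.p6) and were found by symbol for 9 of the 10 genes, all but Smc4. Each stretch below ends directly before the most upstream annotated start and runs 5′ to 3′ on the gene's strand. Capitals mark matches to CCAAT or to the CHR letters TTTGAA and TTTAAA, on either strand.
Mki67, chr7:135716380-135716529, minus strand: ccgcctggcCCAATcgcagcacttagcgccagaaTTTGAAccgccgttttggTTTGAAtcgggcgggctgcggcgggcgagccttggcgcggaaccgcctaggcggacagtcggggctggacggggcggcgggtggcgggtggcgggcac
Top2a, chr11:99024190-99024339, minus strand: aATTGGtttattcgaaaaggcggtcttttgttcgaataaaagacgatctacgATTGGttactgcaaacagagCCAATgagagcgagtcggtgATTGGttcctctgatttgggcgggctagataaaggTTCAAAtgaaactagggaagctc
Ncapd2, chr6:125191702-125191836, minus strand: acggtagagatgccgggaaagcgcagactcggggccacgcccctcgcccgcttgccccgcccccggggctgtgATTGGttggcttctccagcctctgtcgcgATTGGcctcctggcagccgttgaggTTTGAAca
Ncapg, chr5:45669769-45669918, plus strand: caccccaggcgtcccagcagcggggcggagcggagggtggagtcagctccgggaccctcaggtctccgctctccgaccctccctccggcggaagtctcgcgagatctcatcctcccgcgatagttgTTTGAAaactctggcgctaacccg
Ncaph, chr2:127133955-127134104, minus strand: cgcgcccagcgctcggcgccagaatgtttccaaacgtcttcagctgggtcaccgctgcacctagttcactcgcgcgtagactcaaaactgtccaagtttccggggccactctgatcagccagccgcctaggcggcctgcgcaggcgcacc
Ncaph2, chr15:89355569-89355718, plus strand: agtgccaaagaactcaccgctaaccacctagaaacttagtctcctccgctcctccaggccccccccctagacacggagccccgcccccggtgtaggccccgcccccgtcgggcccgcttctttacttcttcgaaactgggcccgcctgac

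Mki67 and Top2a had 3 and 6 CCAAT matches and 2 CHR matches each in the window from 250 bases before to 50 bases after the RefSeq start site. In Top2a the CHR match nearest to the start began at -23, and in Mki67 at -98, counted from the base before the start as -1. Ncapd2 had 3 CCAAT matches and a CHR match at -123, and Ncapg had a CCAAT match at -176 and a CHR match at -30. For Ncapd2 the deposited gene start lies 115 bases upstream of the RefSeq start. Its printed stretch therefore ends at -116, and its CCAAT match at -48 and E2F-type match at -8 lie inside the deposited gene. The printed stretch of Ncapg begins at -156, past its CCAAT match. Smc2 had a CCAAT match at -119 and CHR matches at -145 and 27, and Ncapg2 had a CHR match at -18 and no CCAAT box. Ncaph, Ncaph2 and the Ncapd3 promoter at the start used by the table held no CCAAT and neither TTTGAA nor TTTAAA, on either strand. Other spellings of the CHR were not searched. A second Ncapd3 entry of RefSeq, 30241 bases further downstream, had 2 CHR matches.

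A CHR match was thus present in 6 of 9 promoters, against 27.6% of 32851 mouse promoters of the same 300 bases. A CCAAT match was present in 5 of 9, against 37.4%, and both together in 5 of 9, against 10.7%. E2F-type letters (TTTCCCGC, TTTGGCGC, TTTCGCGC or TTTGCCGC, either strand) matched in Ncapd2, Ncapg and Ncapg2, against 2.26% of promoters. No match in these 9 promoters overlapped another. These matches describe letters in the window only.

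The libraries held 16158210 to 19234777 reads assigned to genes in cHET and 15490622 to 16690171 in control (p = 0.0571 by a two-sided exact test over all regroupings of the 8 libraries, which can give no p below 0.0286). Cardiomyocyte markers were abundant in every library, with Actc1 at 5673 FPKM or more in cHET and 5227 or more in control. Mrps5 itself stood at 6.84, 7.12, 6.995 and 7.68 FPKM in cHET 1 to 4, against 11.6, 6.27, 10.1 and 5.15 FPKM in control 1 to 4 (p = 0.486 by the same exact test). For the targeted gene, 2 libraries labelled control (2 and 4) were thus lower than all 4 cHET libraries, and Mrps5 does not separate the labels. Where the loxP sites lie is not given in the labels. Control 1 stood apart for the condensation genes, as the lowest library for 8 of the 10. It and control 2 also had the most RNA of the brown fat gene Ucp1 (17.8 and 16.7 FPKM, against 6.56 FPKM or less elsewhere), and control 1 had the largest share of reads from mitochondrial DNA (13.4%, against 7.86 to 11.1% elsewhere). Xist and the Y-linked Ddx3y marked cHET 1, control 1 and control 3 as male and the other 5 libraries as female. Fits with sex as a covariate, without control 1 and without control 1 and 2 are given below. Beyond such refits, the part of these differences in the results was not tested.

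Mki67 (ENSMUSG00000031004, chromosome 7, 135689784 to 135716361, minus strand) is transcribed in cycling cells and is the usual marker of proliferation. It stood at 26.7, 21.5, 31.4 and 35.2 FPKM in cHET 1 to 4, against 11.4, 14.9, 19.0 and 21.03 FPKM in control 1 to 4. Every cHET library was above every control library, though cHET 2 (21.5) and control 4 (21.03) lay close together. The log2 fold change, computed on FPKM + 1, was 0.77 (SE 0.201; limma, adjusted p = 0.350), the largest of the 10. It was 0.61 without control 1 and 0.48 without control 1 and 2. Only 3 of 13029 genes were called higher (0.023% of those tested; limma, adjusted p under 0.05) and 0 lower. By unadjusted p the limma count was 655 genes higher (5.03%) and 511 lower (3.92%).

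Top2a (ENSMUSG00000020914, chromosome 11, 98992943 to 99024189, minus strand) encodes the topoisomerase II of dividing cells. It had 22.8, 23.2, 28.3 and 31.1 FPKM in cHET 1 to 4, against 12.9, 18.5, 19.0 and 18.8 FPKM in control 1 to 4. The groups did not overlap, and 3 control libraries lay within 1 FPKM of each other with control 1 far below them. On the log2 scale Top2a was higher by 0.58 (SE 0.148; adjusted p = 0.337 by limma), and by 0.45 without control 1. Top2b, the topoisomerase II that non-dividing cells also use, averaged 11.1 ± 0.857 FPKM in cHET and 9.88 ± 1.31 FPKM in control (SD, n = 4), with overlapping groups.

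**Figure D1:**
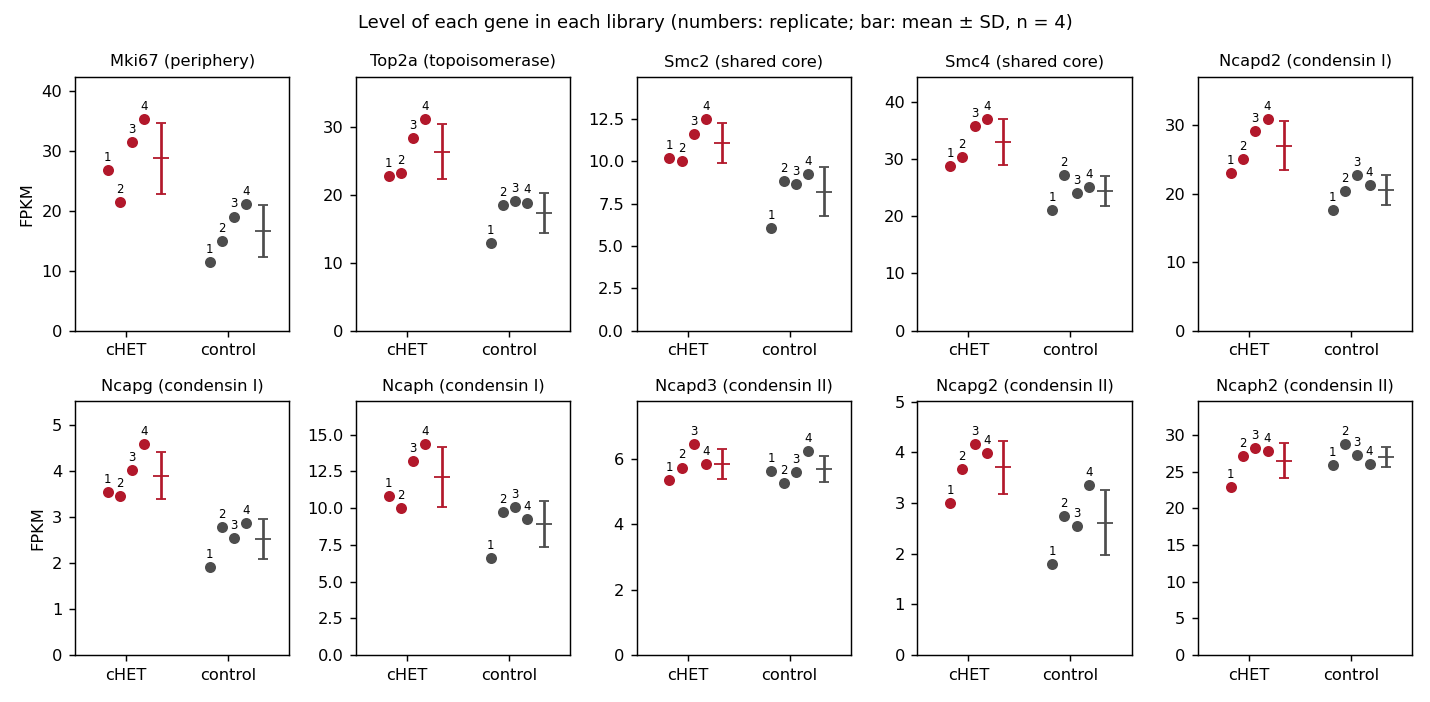
Level in FPKM (y axis, from 0) of each of the 10 genes in each library of cHET (left in each panel) and control (right), with the replicate number beside each point and the mean ± SD (n = 4) as a bar. Groups are separate for Mki67, Top2a, Smc2, Smc4, Ncapd2 and Ncapg, touch or cross for Ncaph and Ncapg2, and lie over each other for Ncapd3 and Ncaph2; control 1 is the lowest point in 8 panels.

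The shared ATPase core differed in the same direction. Smc2 (ENSMUSG00000028312, chromosome 4, 52439243 to 52488260, plus strand) had 10.2, 10.03, 11.6 and 12.5 FPKM in cHET 1 to 4, against 6.05, 8.83, 8.65 and 9.23 FPKM in control 1 to 4. Smc4 (ENSMUSG00000034349, chromosome 3, 69004738 to 69034623, plus strand) had 28.9, 30.4, 35.8 and 36.9 FPKM in cHET 1 to 4, against 21.03, 27.2, 24.1 and 25.2 FPKM in control 1 to 4. For both genes all cHET values lay above all control values. Their log2 fold changes were 0.40 for Smc2 (SE 0.130; limma, adjusted p = 0.433) and 0.42 for Smc4 (SE 0.113; limma, adjusted p = 0.354). The protein products form a dimer, but per length the Smc4 transcript exceeded the Smc2 transcript in every library, at a ratio of 2.83 to 3.09 in cHET and 2.73 to 3.47 in control.

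Condensin I was represented by its 3 own subunits, and their values were higher in cHET in similar measure. Ncapd2 (ENSMUSG00000038252, chromosome 6, 125168007 to 125191701, minus strand), a HEAT-repeat subunit, had 23.1, 25.01, 29.2 and 30.9 FPKM in cHET 1 to 4, against 17.6, 20.4, 22.7 and 21.3 FPKM in control 1 to 4. Its groups were separate by a narrow gap, between cHET 1 (23.1) and control 3 (22.7). The other HEAT-repeat subunit, Ncapg (ENSMUSG00000015880, chromosome 5, 45669919 to 45700546, plus strand), had 3.54, 3.46, 4.01 and 4.59 FPKM in cHET 1 to 4, against 1.90, 2.78, 2.54 and 2.86 FPKM in control 1 to 4. Its groups were separate by a wider margin, and at 209 reads in control 1, its lowest library, the 95% exact Poisson interval ran from 1.65 to 2.18 FPKM, which covers counting error only. The kleisin Ncaph (ENSMUSG00000034906, chromosome 2, 127103809 to 127133954, minus strand) had 10.8, 9.98, 13.2 and 14.4 FPKM in cHET 1 to 4, against 6.62, 9.73, 10.1 and 9.27 FPKM in control 1 to 4. Here the groups overlapped by a single pair, since cHET 2 (9.98) lay just below control 3 (10.1).

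The log2 fold changes of the condensin I subunits were 0.38 for Ncapd2 (SE 0.117; limma, adjusted p = 0.424), 0.48 for Ncapg (SE 0.117; limma, adjusted p = 0.337) and 0.40 for Ncaph (SE 0.149; limma, adjusted p = 0.486). The added 1 FPKM understates the change of low genes. As a plain ratio of means, Ncapg was 1.55-fold higher in cHET, next to Top2a at 1.52-fold, while Ncaph was 1.36-fold higher.

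Condensin II gave a divided picture. Ncapg2 (ENSMUSG00000042029, chromosome 12, 116405402 to 116463731, plus strand), the counterpart of Ncapg, had 3.00, 3.66, 4.17 and 3.99 FPKM in cHET 1 to 4, against 1.79, 2.75, 2.55 and 3.35 FPKM in control 1 to 4. Its cHET mean was 1.42-fold higher, and the groups overlapped because cHET 1 (3.00) lay below control 4 (3.35). The log2 fold change of Ncapg2 was 0.39 (SE 0.142; limma, adjusted p = 0.485), and 0.25 without control 1 and 2.

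Ncapd3 and Ncaph2 showed no such difference. Ncapd3 (ENSMUSG00000035024, chromosome 9, 27030175 to 27095315, plus strand), the counterpart of Ncapd2, had 5.34, 5.73, 6.46 and 5.85 FPKM in cHET 1 to 4, against 5.61, 5.27, 5.61 and 6.24 FPKM in control 1 to 4. The kleisin Ncaph2 (ENSMUSG00000008690, chromosome 15, 89355719 to 89372826, plus strand) had 22.9, 27.1, 28.2 and 27.8 FPKM in cHET 1 to 4, against 25.9, 28.8, 27.3 and 26.02 FPKM in control 1 to 4. In both genes the groups lay over each other, and the lowest value of Ncaph2 was in cHET 1. The log2 fold change of Ncapd3 was 0.034 with a 95% interval of -0.15 to 0.22 (limma, adjusted p = 0.900), and that of Ncaph2 was -0.030 with -0.23 to 0.17 (limma, adjusted p = 0.921). These intervals leave out the estimates of 0.38 or more of the other 8 genes, but not smaller differences in either direction. Those estimates had wide 95% intervals of their own (limma). Some reached down into the intervals of Ncapd3 and Ncaph2, as for Ncaph (from 0.067) and Ncapg2 (from 0.072). Those of Mki67 (from 0.31) and Top2a (from 0.25) did not. The signs of both small values turned in some settings: Ncaph2 was above 0 under TPM, without cHET 1 and without control 2, and Ncapd3 was below 0 without cHET 3 and without control 1 and 2.

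**Figure D2:**
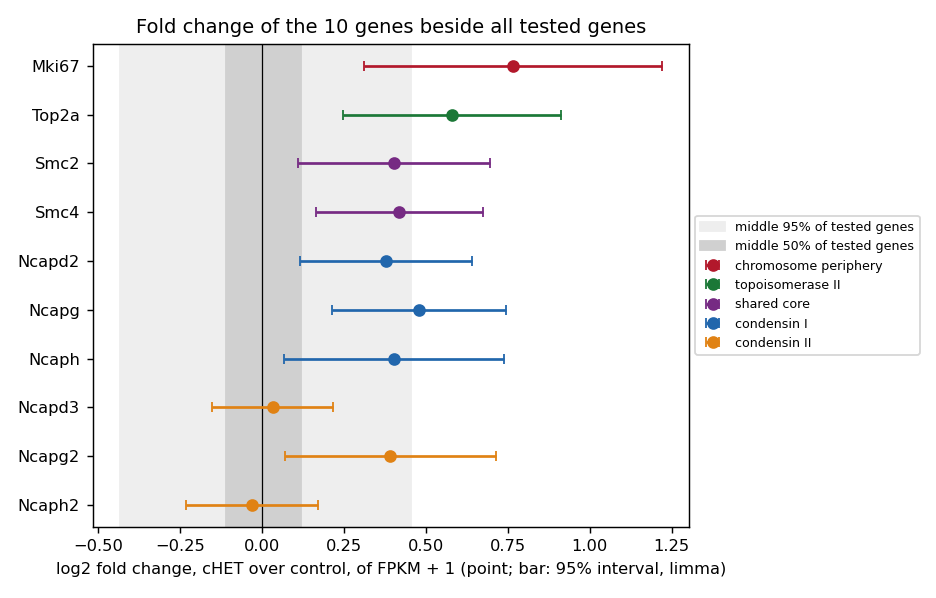
Log2 fold change, cHET over control, of FPKM + 1 (x axis) for the 10 genes, as point and 95% interval from limma, with colours for their roles; the grey bands hold the middle 50% (-0.11 to 0.12) and the middle 95% (-0.43 to 0.45) of the 13029 genes tested. The points of Mki67 (0.77), Top2a (0.58) and Ncapg (0.48) lie past the wider band, and those of Ncapd3 (0.034) and Ncaph2 (-0.030) inside the narrower one.

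Over the 10 genes together, the median log2 fold change was 0.40, against 0.0086 over all genes tested, and 9 of 10 were above 0, against 52.1%. Of the 10, 8 had an unadjusted limma p under 0.05, all as higher in cHET, against 5.03% of all genes. All cHET libraries lay above all control libraries for 6 of the 10, against 2.74% of all genes. These counts are no test of the group, since its members were chosen with results of these data known and moved together across libraries. Without control 1 the median was 0.30, 6 had an unadjusted p under 0.05 (3.35% of all genes) and the groups of 6 did not overlap (3.42%). Without control 1 and 2 the median was 0.28, 5 had an unadjusted p under 0.05 (5.27%) and the groups of 6 did not overlap (10.1%). In bulk RNA, more dividing cells and more RNA of these genes per cell cannot be told apart.

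Set side by side, the mean log2(FPKM + 1) of the condensin I subunits was 3.44, 3.44, 3.69 and 3.81 in cHET 1 to 4, against 2.896, 3.25, 3.29 and 3.26 in control 1 to 4. That of the condensin II subunits was 3.08, 3.26, 3.38 and 3.31 in cHET 1 to 4, against 2.99, 3.15, 3.12 and 3.24 in control 1 to 4. The groups were separate for condensin I and overlapped for condensin II. The level of I minus that of II within a library was 0.36, 0.18, 0.31 and 0.49 in cHET 1 to 4, against -0.090, 0.10, 0.16 and 0.019 in control 1 to 4, so that each cHET library lay above each control library. The gap is narrow, between cHET 2 (0.18) and control 3 (0.16). Averaged, the fold change was 0.42 for condensin I and 0.13 for condensin II on the log2 scale, a difference of 0.29. No p is given for these means, because they are scores over genes chosen with results known. The condensin II value was 0.085 without control 1, 0.074 without control 1 and 2, and 0.25 under TPM. Over all alternative settings that gave a value, those just named included, condensin I lay between 0.32 and 0.55 and the difference between 0.23 and 0.34.

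Summed FPKM gave the condensin II side more weight, since most of its sum is Ncaph2. The 3 condensin I subunits summed to 43.0 ± 6.09 FPKM in cHET and 32.0 ± 4.01 FPKM in control (SD, n = 4). The 3 condensin II subunits summed to 36.0 ± 3.32 FPKM in cHET and 35.3 ± 1.45 FPKM in control. The ratio of I to II was therefore above 1 in all 4 cHET libraries (1.05 to 1.32) and below 1 in all 4 control libraries (0.785 to 0.996). On the mean of logs, by contrast, condensin I was also above condensin II in 3 of 4 control libraries, so which complex stood higher in control depended on the scale.

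**Figure D3:**
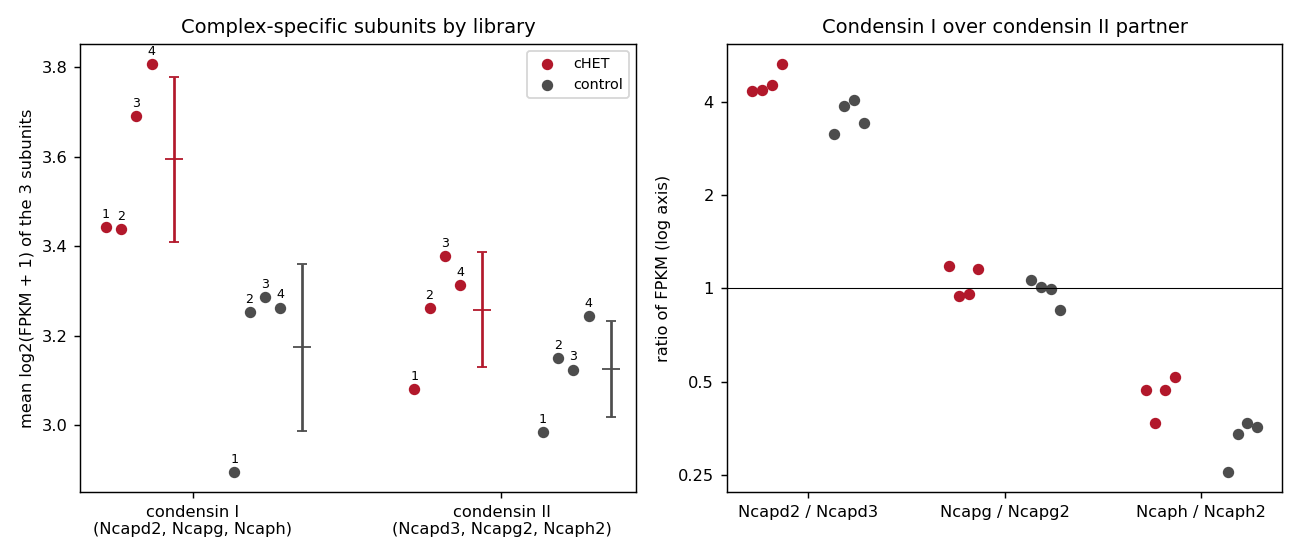
Left, mean log2(FPKM + 1) of the 3 subunits of condensin I and of condensin II in each library (points, with replicate numbers) with mean ± SD (n = 4). Right, the ratio of FPKM of each condensin I subunit to its condensin II counterpart, on a log axis, with cHET left of control in each pair. Condensin I is separate between groups and condensin II is not; Ncapd2 over Ncapd3 is separate, at 4.32 to 5.28 in cHET and 3.14 to 4.06 in control.

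The counterparts differed in which complex had the higher transcript level per length. Ncapd2 exceeded Ncapd3 in all 8 libraries, at a ratio of 4.32, 4.36, 4.52 and 5.28 in cHET 1 to 4, against 3.14, 3.87, 4.06 and 3.42 in control 1 to 4. Ncapg and Ncapg2 were close to equal, at a ratio of 0.944 to 1.180 in cHET and 0.854 to 1.06 in control. The kleisins stood the other way round, with Ncaph below Ncaph2 in every library, at a ratio of 0.471, 0.368, 0.470 and 0.517 in cHET 1 to 4, against 0.255, 0.338, 0.369 and 0.356 in control 1 to 4. The ratio of the Ncapd pair was separate between groups, that of the kleisins overlapped only through cHET 2 and control 3, and that of the Ncapg pair overlapped broadly.

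Ordered by their mean level over the 8 libraries, the genes ran from Smc4 (28.7 FPKM) through Ncaph2 (26.8), Ncapd2 (23.8), Mki67 (22.6), Top2a (21.8), Ncaph (10.5), Smc2 (9.63), Ncapd3 (5.76) and Ncapg (3.21) to Ncapg2 (3.16). The top of this order depended on the group: Smc4 was above Ncaph2 in all 4 cHET libraries and in 0 of 4 control libraries. Ncaph2 in turn was above Ncapd2 in 1 of 4 cHET libraries and in 4 of 4 control libraries. Mki67 and Top2a, and likewise Ncapg and Ncapg2, could not be ordered, each being the higher in 4 of 8 libraries. Ncapd3 was above Ncapg in all 8 libraries with no overlap of their ranges.

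Across libraries, 8 of the genes followed a common profile. Over the 8 libraries, the Pearson correlation of log2(FPKM + 1) among Mki67, Top2a, Smc2, Smc4, Ncapd2, Ncapg, Ncaph and Ncapg2 was 0.865 to 0.986 in their 28 pairs. Once the group means were subtracted, it was 0.667 to 0.978, so the libraries of a group differed along the same line. The highest library was cHET 4 for 7 genes and cHET 3 for 2 (Ncapd3 and Ncapg2), and control 1 was the lowest for 8. Ncapd3 and Ncaph2 shared less of the profile, with correlations of -0.020 to 0.571 in the 17 pairs that hold either of them. Within groups these pairs reached from 0.181 to 0.760, so their upper end lies inside the range of the others. The same libraries, with their depth and cell makeup, enter every pair, and the values are descriptions over 8 points.

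**Figure D4:**
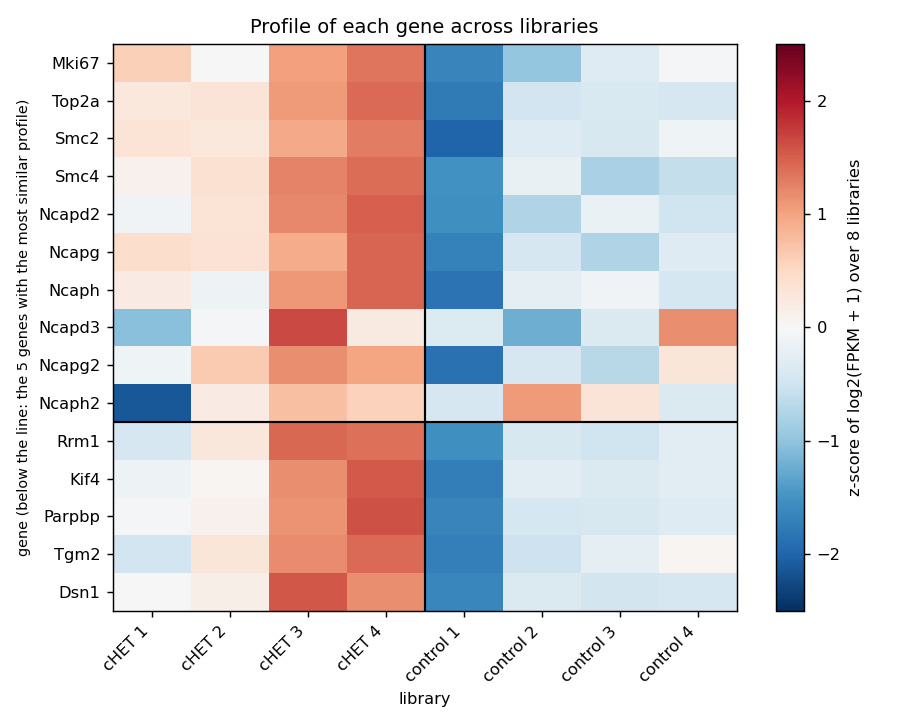
Heat map of z-scores of log2(FPKM + 1) over the 8 libraries (columns, cHET left of control) for the 10 genes and, under the line, the 5 other genes with the most similar profile. In all rows except Ncapd3 and Ncaph2, cHET 3 and cHET 4 are high and control 1 is low.

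The protein-coding genes nearest to the mean profile of the 10 were Rrm1 (r = 0.990), Kif4 (0.988), Parpbp (0.988), Tgm2 (0.985) and Dsn1 (0.983), over 8 libraries. Rrm1 is the large subunit of ribonucleotide reductase, Kif4 is a chromosome-bound kinesin that works with condensin, and Dsn1 is a kinetochore subunit. Tgm2, a transglutaminase, is not known as a cell cycle gene. Kif4 averaged 8.66 ± 1.96 FPKM in cHET and 5.95 ± 1.12 FPKM in control (SD, n = 4; log2 fold change 0.47; limma, adjusted p = 0.479). For the condensin I subunits alone the nearest genes were Incenp (0.997), Parpbp (0.994) and Racgap1 (0.992), genes of the chromosomal passenger complex, of DNA repair and of the central spindle. For the condensin II subunits alone they were Slc27a4 (0.985), Nap1l4 (0.984) and Rpa1 (0.981).

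Other genes of chromosome structure were read from 8 lists, and none of their genes passed the limma test (adjusted p 0.309 or more). The cyclins and kinases that act on condensin and its chromosomes had the highest median, 0.47, with 14 of 14 above 0 and 8 of 14 with separate groups (2.74% of all genes). Ccnb1, the cyclin of mitotic entry, averaged 22.4 ± 5.19 FPKM in cHET and 13.8 ± 2.41 FPKM in control, and Incenp, the scaffold of Aurora B, 20.9 ± 3.32 FPKM in cHET and 13.8 ± 2.33 FPKM in control (SD, n = 4). The casein kinase 2 genes Csnk2a1 and Csnk2a2, which are not specific to mitosis, had 0.12 and 0.086.

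Cohesin is the related complex that holds sister chromatids together. The 10 genes of its core, loader and release had a median of 0.084, with 7 above 0 (52.1% of all genes), 1 with an unadjusted p under 0.05 as higher (Rad21, the kleisin, at 0.43; 5.03% of all genes) and 0 with separate groups (2.74% of all genes). Smc1a had 0.15. The 11 genes that establish or remove cohesion had a median of 0.22, with 10 above 0 (52.1% of all genes) and 3 with separate groups (2.74% of all genes). Among them the centromere protector gene Sgo2a averaged 3.33 ± 0.371 FPKM in cHET and 2.02 ± 0.365 FPKM in control, and the separase gene Espl1 5.75 ± 1.10 FPKM in cHET and 3.57 ± 0.796 FPKM in control (SD, n = 4). The Smc5/6 complex, which acts in repair, had a median of 0.082 over 6 tested genes, with Nsmce2 at 0.23 and Smc6 at 0.16. The 5 topoisomerases other than Top2a had a median of 0.10, with Top1 at 0.17 and Top2b at 0.15. Of these 5, 0 had an unadjusted limma p under 0.05 (5.03% of all genes as higher, 3.92% as lower). So few genes cannot be told from those shares.

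Regulators of condensin and of the chromosome scaffold had a median of 0.27 over 14 genes, with Ckap2 at 0.41 and the spindle factor Tpx2 at 0.64; 7 had an unadjusted p under 0.05, all as higher (5.03% of all genes). The 11 partners of Ki-67 at the chromosome periphery and nucleolus were all above 0, with a median of 0.19. Highest was Cdca2, the Ki-67-like anchor of protein phosphatase 1 on chromosomes, at 0.42, and the phosphatase gene Ppp1cc had 0.25. Genes of the factors that read CCAAT and CHR elements, and their relatives, had a median of 0.089 over 14 genes. Foxm1 (0.50) and the MuvB subunit gene Lin9 (0.35) were the 2 of 14 with separate groups (2.74% of all genes). With E2f1 (0.42, overlapping groups) they were the 3 of 14 with an unadjusted limma p under 0.05, all as higher (5.03% of all genes). Mybl2, Rbl1, Rbl2 and E2f4 had 0.30, 0.22, 0.16 and -0.050, with overlapping groups. The other MuvB genes Lin37, Lin52, Lin54 and Rbbp4 had -0.23, 0.089, 0.090 and 0.087, with overlapping groups. The NF-Y genes Nfya, Nfyb and Nfyc had -0.0099, 0.021 and -0.0068.

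**Figure D5:**
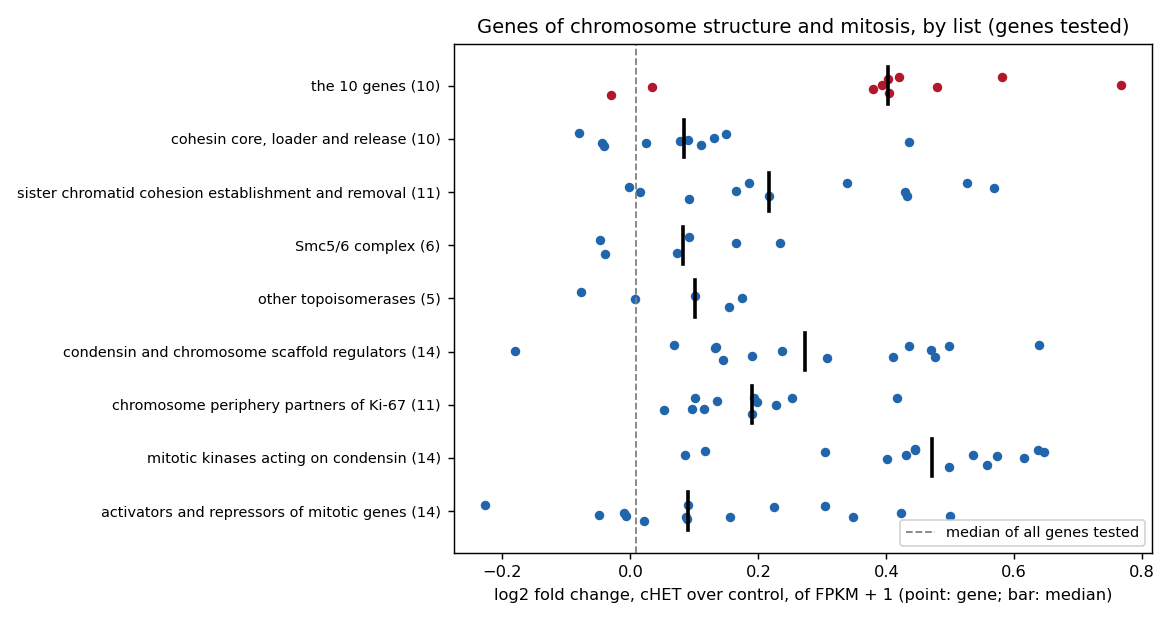
Log2 fold change, cHET over control, of FPKM + 1 (x axis) of each tested gene (points) by list, with the median of each list as a bar and the median of all genes tested (0.0086) as a dashed line. The bar of the 10 genes stands at 0.40, that of the mitotic kinases at 0.47 and those of the cohesin core, of Smc5/6 and of the other topoisomerases at 0.10 or less.

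Markers of other cells that could carry these transcripts were summed per library. Summed erythroid RNA ranged from 1599 to 2544 FPKM in cHET and from 1026 to 8419 FPKM in control, highest in control 2 and lowest in control 1. Its leading genes were Hbb-bs (log2 fold change -0.29) and Hba-a1 (-0.39). Of 8 tested markers, 0 had an unadjusted limma p under 0.05 (5.03% of all genes as higher, 3.92% as lower). Leukocyte markers were below 0 for 8 of 8 tested genes, 4 of them with an unadjusted p under 0.05 (3.92% of all genes), and summed to 62.8 to 97.52 FPKM in cHET and 82.0 to 171 FPKM in control, led by Lyz2 (-0.50) and C1qa (-0.43). Epicardial markers had a median of -0.29, with 8 of 10 below 0. Of these, 4 had an unadjusted limma p under 0.05 (3.92% of all genes). For 1 epicardial marker every cHET library was below every control library (2% of all genes). The most abundant were Tcf21 (-0.21), which is also a fibroblast marker, and Aldh1a2 (0.17). The epicardial list summed to 60.4 to 88.4 FPKM in cHET and 86.3 to 137 FPKM in control. Endothelial markers had a median of -0.21, with 7 of 10 below 0, 5 of them with an unadjusted p under 0.05 (3.92% of all genes), and 2 with every cHET library below every control library (2% of all genes). Their smallest adjusted p by limma was 0.207, below that of any of the condensation genes. The most abundant of them, Fabp4 (0.021) and Cdh5 (0.38), were among the 3 above 0, and the list summed to 377 to 415 FPKM in cHET and 405 to 436 FPKM in control. Sums of cardiomyocyte markers (Actc1 0.34, Myh6 -0.20) lay at 11192 to 14490 FPKM in cHET and 11266 to 12729 FPKM in control. Of the 10 cardiomyocyte markers, 5 were above 0 and 5 below 0, with a lowest value of -0.48. By unadjusted limma p under 0.05, 1 was lower (3.92% of all genes) and 0 were higher (5.03%). For 1 of the 10, every cHET library was below every control library (2% of all genes). Fibroblast markers (Col3a1 -0.16, Col1a1 -0.040) had a median of -0.15 with 9 of 10 below 0. Of the 10, 0 had an unadjusted limma p under 0.05 (5.03% of all genes as higher, 3.92% as lower). They summed to 475 to 767 FPKM in cHET and 519 to 770 FPKM in control. Smooth muscle markers (Acta2 0.39, Rgs5 -0.11) summed to 540 to 872 FPKM in cHET and 462 to 899 FPKM in control. Of 9 tested, 4 were above 0 and 5 below 0. By unadjusted limma p under 0.05, 1 of the 9 was higher (5.03% of all genes) and 0 were lower (3.92%). Fat markers summed to 175 to 197 FPKM in cHET and 156 to 228 FPKM in control, mostly from Fabp4. Of the 4 tested, Fabp4 and Cidea (0.014) were above 0 and the other 2 below 0, with a median of -0.41 and a lowest value of -0.99, and 4 more were not tested. Which cells carried the condensation transcripts was not tested, and the part of these cell types in the differences was not tested.

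Some of the genes share ground with others. Top2a overlaps Gm26394 and Gm23451 (4.20 FPKM or less on average), Ncapg overlaps Lcorl on the opposite strand (1.19 FPKM) and Ncaph2 overlaps Tymp and Sco2 on the opposite strand (0.734 FPKM or less). Mki67, Smc2, Smc4 and Ncapd2 overlap genes of 0.239 FPKM or less on average, and Ncaph, Ncapd3 and Ncapg2 overlap none. The sources used here do not say whether reads were counted by strand, so reads in these overlaps cannot be told apart.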

How the data were processed

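Poly(A) RNA of 8 hearts was sequenced, per the labels' protocols. The submitters' processing notes name HISAT2 2.0.5, featureCounts 1.5.0-p3, DESeq2 1.20.0 and mm9, with no roles. The deposited values are FPKM, per the file headers. The deposited coordinates were those of GRCm38: of 54409 identifiers also in GENCODE M21, 98.3% matched in both ends. Multiplied by gene length and divided by a factor fitted for each library, 100% of the FPKM values were whole reads within 0.05. The sum of these reads gave the depth of each library. The library total that the FPKM imply was 0.968 (control 1 and 2) to 1.04 (cHET 2) times this depth, so it was not that sum itself.

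Genes with a mean of at least 1 FPKM (13029) were compared between cHET and control on the scale log2(FPKM + 1), using limma 3.58.1 (R 4.3.3; trend and robust options), with Benjamini-Hochberg adjustment over all of them at 0.05. Single values per library were compared by exact two-sided permutation tests (SciPy 1.17.1). The design calls the 4 libraries per group biological replicates. The members and lists were chosen with earlier results of these data known. Named are the 2 genes of smallest p per pathway list, the 2 of highest mean per cell type list, and of each profile the nearest 5 or 3 protein-coding genes. Genes named beyond that rule, chosen after their values were seen, are Csnk2a1, Csnk2a2, Lin37, Lin52, Lin54, Rbbp4, Nfya, Nfyb, Nfyc, E2f1, E2f4, Mybl2, Rbl1 and Rbl2. Promoter windows were searched for exact letters. Alternatives were other pseudocounts, filters, scalings and variance models, library weights, voom on rebuilt reads, a replicate block, sex as a covariate, and libraries left out. Of these, median-of-ratios scaling hardly altered the values: Mki67 stayed at 0.77 and the median of all genes at 0.0086.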

Additional observations from a re-analysis of the deposited data

Results flagged for a closer look

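Top2a in control 1 stood at 12.9 FPKM, far below the next control library at 18.5 FPKM, relative to the range of the 4 controls. It was the only one of 30 groups of 4 libraries looked at (the 10 genes and 5 measures of condensin I against II, in cHET and in control) that was marked in this way, where chance marks about 1 in 20. Of the other 9 genes, 7 also had their lowest value in control 1, and the reason was not tested.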

How the results depend on the processing

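No gene of the 10 passed limma's adjusted threshold in any of 24 other settings, where the adjusted p of the 8 genes other than Ncapd3 and Ncaph2 ran from 0.121 to 0.927. Their log2 fold changes stayed above 0 in every setting that tested them, at 0.25 (Ncapg2) or more; Ncapg and Ncapg2 were not tested at a mean of at least 5 FPKM. Ncaph2 turned to 0.067 under TPM (where the median of all genes was 0.10), and ran from -0.060 to 0.035 with a library left out. Ncapd3 turned to -0.018 without control 1 and 2, and ran from -0.0085 to 0.073 with a library left out. Over all genes, limma library weights called 8 higher and 3 lower, and a minimum of 5 FPKM called 1 higher, against 3 higher and 0 lower. The count of members with an unadjusted limma p under 0.05, an alternative chosen after seeing the data, was 5 of 10 without control 1 and 2. With sex as a covariate the median log2 fold change of the 10 genes was 0.35, with Mki67 at 0.72 and the condensin II mean at 0.086. Their adjusted p in that limma fit was 0.524 or more. With a replicate block 1 gene was called higher, and the 10 genes had adjusted p of 0.121 or more. Same-numbered libraries correlated at 0.052 to 0.286 in their deviations, and not every library correlated best with its own number, so they are not treated as pairs. The lowest read number behind a member's value was 209 (Ncapg in control 1).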
